A study of Rattus norvegicus with 3 samples.

Results

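The Notch pathway was followed through 10 of the 32623 genes in the count matrices of rat cochlea: the receptors Notch1, Notch2, Notch3 and Notch4, the ligands Jag1 and Jag2, the targets Hes1, Hes5 and Hey1, and the fringe enzyme Lfng. All 10 were present in the matrices. Cochlear duct tissue of untreated Sprague-Dawley rats had been dissociated at postnatal days 1, 7 and 14 (P1, P7 and P14) and captured by droplet single-cell RNA sequencing, which tags each captured transcript with a unique molecular identifier (UMI). Each stage was 1 library, with females and males not separated and the number of rats in it not stated, so stage and library cannot be told apart and no test between stages was possible. Differences between cell classes are given without a test, since the classes were formed by clustering the same cells and the 3 libraries are of different stages. The spiral ganglion, spiral ligament and stria vascularis had been dissected away from the basal membrane before dissociation. The intervals given below cover counting error only.

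Notch receptors sit in the membrane of one cell and bind Jagged or Delta-like ligands on its neighbour, after which the receptor is cut and its inner part moves to the nucleus, where it joins the DNA-binding protein RBPJ and switches on genes of the Hes and Hey families. Fringe enzymes add sugars to the receptor that change which ligand it answers to. In the developing cochlea the pathway is known for setting the alternation of hair cells and supporting cells, and in blood vessels for the contact between endothelial cells and the mural cells (pericytes and smooth muscle) around them.

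RBPJ reads a short DNA core, TGGGAA, and the start regions of 3 members that each held 2 such cores are shown because they stand for a target that was measured (Hes1), a target without a single UMI (Hes5) and a receptor with a narrow distribution (Notch4). The RefSeq windows of the GRCr8 assembly run from 250 bases before the gene start to 50 bases after it, and 9 of the 10 members had one. The core was searched on both strands, and it lay in the windows of 5 members, Notch3, Notch4, Lfng, Hes1 and Hes5. Lfng also held 2 cores and is not shown, and Notch3 held 1. Over all 33469 windows of 300 bases, 25.7% held at least 1 core and 3.85% held 2 or more. A match describes the letters and is not evidence of binding. Below are the 250 bases before the start, 5′ to 3′ on the strand of the gene, with the core or its reverse complement TTCCCA in capitals: Hes1 at chr11:84213046-84213295 (minus strand), Hes5 at chr5:170804327-170804576 (plus strand) and Notch4 at chr20:4189073-4189322 (minus strand).
Hes1: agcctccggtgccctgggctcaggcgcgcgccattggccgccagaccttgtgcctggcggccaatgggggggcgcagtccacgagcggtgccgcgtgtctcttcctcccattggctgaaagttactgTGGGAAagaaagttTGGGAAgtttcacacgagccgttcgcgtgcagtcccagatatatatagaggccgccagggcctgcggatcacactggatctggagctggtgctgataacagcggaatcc
Hes5: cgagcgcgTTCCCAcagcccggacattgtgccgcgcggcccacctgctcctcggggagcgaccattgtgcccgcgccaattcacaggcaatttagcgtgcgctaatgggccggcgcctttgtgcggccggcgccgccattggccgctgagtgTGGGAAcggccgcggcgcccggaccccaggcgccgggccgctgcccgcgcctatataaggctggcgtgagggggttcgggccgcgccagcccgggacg
Notch4: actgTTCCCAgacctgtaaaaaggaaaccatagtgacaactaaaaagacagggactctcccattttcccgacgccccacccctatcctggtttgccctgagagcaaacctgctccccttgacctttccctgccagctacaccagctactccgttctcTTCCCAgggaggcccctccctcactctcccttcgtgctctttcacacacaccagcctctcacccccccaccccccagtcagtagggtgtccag
In Hes1 both cores began 123 and 109 bases before the start and had the same orientation. In Hes5 they began at 242 and 98 bases before the start with opposite orientations. In Notch4 they began at 246 and 93 bases before the start, both read on the opposite strand.

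Of 34927 barcodes, 30641 with more than 500 and fewer than 5000 genes and under 25% of UMIs on mitochondrial genes were kept: 12779 at P1, 12581 at P7 and 5281 at P14. The P14 library stood apart in depth, with a median of 1614 UMIs per cell against 6565 at P1 and 6878 at P7. Between 16 and 53 kept barcodes were shared by any pair of libraries. The samples are labelled as greater epithelial ridge cells, but by marker genes 61.2% of the cells were stroma-like and 18.5% glia-like, whereas 1.95% (599 cells) were epithelium-like. A further 1261 cells were endothelial-like, 677 mural-like, and 179 formed a vessel wall cluster led by Slco1a4, Abcb4 and Sox17 that carried markers of both lists and was counted in neither class. The classes were built without the Notch pathway genes among the genes used for clustering. Their make-up differed between libraries, since endothelial-like cells were 1.29% of P1, 1.43% of P7 and 17.3% of P14 cells.

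Levels are UMIs summed over the cells of a class and stage, as CPM, that is, scaled to the same total UMI count, and are compared only within a gene. Folds and their intervals are ratios of CPM with nothing added, whereas log2 ratios have 1 CPM added to both levels. A difference was counted when log2(CPM + 1) differed by at least 2-fold for a gene whose 2 levels averaged 5 CPM or more. By this rule, 12 combinations of a member and a class stood at least 2-fold above all other cells. In endothelial-like cells these were 5 of 6 members compared (13.4% of all genes compared), in mural-like cells 3 of 6 (6.99%). Epithelium-like cells had 2 of 6 (9.74%), glia-like cells 2 of 5 (8.26%) and stroma-like cells 0 of 6 (5.75%).

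**Figure D1:**
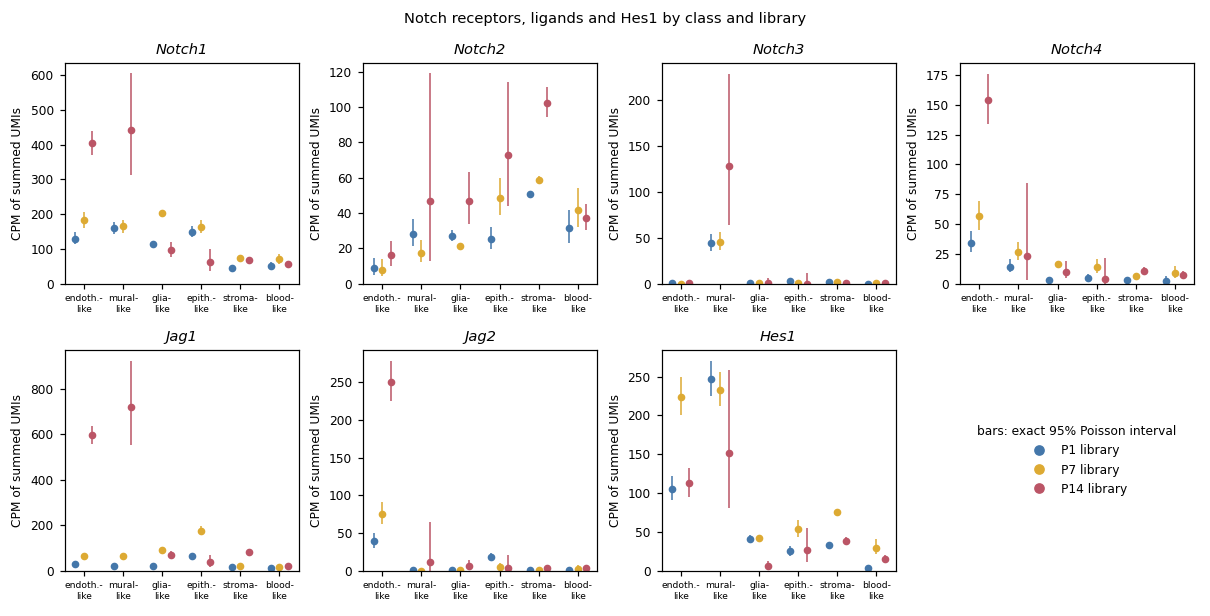
Level of the 4 receptors, both Jagged ligands and Hes1 in CPM of summed UMIs (vertical axis) for 6 cell classes (horizontal axis) in the P1, P7 and P14 libraries (colours), with exact 95% Poisson intervals. Notch3 stood out in mural-like cells, Notch4 and Jag2 in endothelial-like cells, and Jag1 in endothelial-like and mural-like cells of the P14 library at 596 and 721 CPM.

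Among the receptors, Notch1 (ENSRNOG00000019322), the receptor with the broadest known use, was detected in every class. In endothelial-like cells its level was 129.7 CPM at P1 (95% interval 114 to 147), 182 at P7 (162 to 205) and 404 at P14 (372 to 439). Its level over the 3 libraries was 227 CPM in endothelial-like, 173 in glia-like, 168 in mural-like, 149.9 in epithelium-like and 58.4 in stroma-like cells. The ranges over the 3 libraries of neighbours in this order overlapped throughout. Against all other cells, Notch1 was 2.64-fold higher in endothelial-like cells (2.48 to 2.81) and 2.36-fold higher in glia-like cells (2.29 to 2.44). The endothelial-like value stood above the other cells in each of the 3 libraries, but without the P14 library its log2 ratio was 0.83, under 2-fold. The glia-like value stood above the other cells at P1 and P7 and below them at P14, where it was 96.2 CPM against 122 in the other cells. In stroma-like cells Notch1 was 2.43-fold lower than in all other cells (2.36 to 2.50).

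Notch2 (ENSRNOG00000018835) had a different distribution. Stroma-like cells held 50.8 CPM at P1, 58.7 at P7 and 103 at P14, and endothelial-like cells 8.87, 7.87 and 16.0 CPM. Stroma-like cells were above all other cells within each library, by 1.97-fold over the 3 together (1.88 to 2.07), just under the 2-fold limit. It passed the limit in 7 alternatives, with log2 ratios of up to 1.26 against 0.96. Endothelial-like cells were 4.42-fold lower than all other cells (3.35 to 5.95) and glia-like cells 2.12-fold lower (1.97 to 2.29). The endothelial-like range did not overlap that of mural-like cells, the next class up (17.4 to 46.5 CPM). The highest cluster for Notch2 was a stroma-like cluster led by Ptgds, Slc7a11 and Slc16a11 with 129 CPM (112 to 148), of which 847 of 850 cells came from P14.

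Notch3 (ENSRNOG00000004346), known as the receptor of pericytes and vascular smooth muscle, had its highest level in mural-like cells, which gave 181 of its 492 UMIs, while the far more numerous stroma-like cells gave 227. In mural-like cells it stood at 44.1 CPM at P1 (83 UMIs), 45.9 at P7 (87 UMIs) and 128 at P14 (11 UMIs, 63.9 to 229), and no other of the 5 classes exceeded 2.59 CPM in a library. Mural-like cells were 29.9-fold above all other cells (24.8 to 36.1), and within the P1, P7 and P14 libraries 26.8-fold, 31.2-fold and 77.8-fold above them. In endothelial-like cells 3 UMIs were counted over the 3 libraries. The cluster with both vessel wall marker lists held 22.02 CPM (12.0 to 37.0).

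Notch4 (ENSRNOG00000000442), known for its use in the endothelium, stood at 34.4 CPM at P1 (26.3 to 44.1), 56.4 at P7 (45.1 to 69.7) and 154 at P14 (134 to 176) in endothelial-like cells. These cells were 11.03-fold above all others (9.79 to 12.4), and within the P1, P7 and P14 libraries 10.3-fold, 5.59-fold and 12.2-fold above them. Without the P14 library the log2 ratio was 2.57 in place of 3.29. Their range over libraries did not overlap that of mural-like cells, which held 14.3, 26.4 and 23.3 CPM and were 2.46-fold above all other cells (1.93 to 3.08). The mural-like value at P14 rested on 2 UMIs. Blood-like cells, where little Notch4 is known to be made and which show what free RNA in the droplets may contribute, held 2.62, 8.52 and 6.85 CPM. Stroma-like cells held 2.69, 6.70 and 10.6 CPM, close to that level.

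Of the ligands, Jag1 (ENSRNOG00000007443) is known in the cochlea as the ligand of supporting cells and their precursors and is also made by endothelial cells. Endothelial-like cells held 27.7 CPM at P1 (20.6 to 36.5), 64.3 at P7 (52.2 to 78.4) and 596 at P14 (556 to 638). Epithelium-like cells held 64.8 CPM at P1 (55.6 to 75.2), 176 at P7 (157 to 196) and 38.5 at P14 (10 UMIs, 18.45 to 70.7). Glia-like cells held 22.04, 93.4 and 69.3 CPM and stroma-like cells 17.5, 20.1 and 82.2 CPM. At P1 and P7 the epithelium-like level was above that of the other 4 classes, and at P14 it was below each of them. Over the 3 libraries, endothelial-like cells were 5.93-fold above all other cells (5.54 to 6.34), epithelium-like cells 2.85-fold (2.60 to 3.12) and glia-like cells 2.14-fold (2.04 to 2.25; under 2-fold, at a log2 ratio of 0.44, when cells were thinned to 1000 UMIs), while stroma-like cells were 3.19-fold lower (3.05 to 3.35). The endothelial-like excess rested mostly on P14: it was 1.48-fold within P1, 1.43-fold within P7 and 6.33-fold within P14, and without the P14 library the log2 ratio was 0.49. Epithelium-like cells were 3.68-fold above the other cells within P1 and 4.14-fold within P7, but 0.246 times their level within P14. In blood-like cells Jag1 stood at 11.8 to 20.5 CPM.

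Jag2 (ENSRNOG00000013927), a ligand known in hair cells and in endothelium, stood at 39.4 CPM at P1 (30.7 to 49.6), 75.5 at P7 (62.3 to 90.6) and 250.5 at P14 (225 to 278) in endothelial-like cells, against 2.87, 0.896 and 10.5 CPM in all other cells of the same library. Over the 3 libraries the ratio was 47.9 (42.3 to 54.4), and within the single libraries it lay between 13.7 and 84.3. Without the P14 library the log2 ratio was 4.29 in place of 5.09. The vessel wall cluster with both marker lists held 99.1 CPM, the second highest of the 27 clusters with at least 50 cells. Mural-like cells gave 1, 0 and 1 UMIs, and blood-like cells 0.655 to 3.42 CPM. In epithelium-like cells it stood at 18.2 CPM at P1, 5.50 at P7 and 3.85 (1 UMI) at P14, or 2.65-fold above all other cells (2.01 to 3.45). Of the 49 UMIs of epithelium-like cells at P1, 39 fell in a cluster of 21 cells, all from P1, in which hair cell markers such as Otof and Lhfpl5 led. That cluster had 119 CPM (84.5 to 162), and 85.7% of its cells carried a Jag2 UMI at a median of 14482 UMIs per cell, against 1.15% of blood-like cells at a median of 3836. Without it, epithelium-like cells held 4.22, 5.50 and 3.85 CPM, and with the mean of the CPM of each cell in place of the sum the log2 ratio against all other cells turned from 1.24 to -0.31. Without the P14 library it was 1.97. The neuron-like cells of P1 held 21.0 CPM (17.5 to 24.9).

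Among the targets, Hes1 (ENSRNOG00000001720), a repressor of the basic helix-loop-helix family that several pathways besides Notch also drive, was highest in mural-like cells with 247 CPM at P1 (225 to 270.5), 233 at P7 (211 to 255) and 151 at P14 (13 UMIs, 80.5 to 259). Endothelial-like cells followed with 106, 224 and 113 CPM. Mural-like cells were 4.74-fold above all other cells (4.43 to 5.07) and endothelial-like cells 2.83-fold (2.62 to 3.06), in each case above the others within each library. The endothelial-like range did not overlap that of stroma-like cells, which held 32.6, 75.2 and 38.3 CPM. Within the stroma-like class, however, a cluster led by Aard, Col15a1 and Lepr had 147 CPM, the second highest of the 27 clusters with at least 50 cells. Epithelium-like cells held 24.8, 53.9 and 26.9 CPM.

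The remaining 3 members had few or no UMIs. Hes5 (ENSRNOG00000013850), a target known in supporting cells, had 0 UMIs in 30641 cells, which allows up to 0.0148 CPM, and also 0 UMIs in the barcodes that were left out. The annotation release used for counting is not given in the sources used here, so whether its transcripts could be counted is not known, and the 0 is no measure of its level if they could not. Hey1 (ENSRNOG00000011593), a target known in vessels, had 51 UMIs, and Lfng (ENSRNOG00000001250) 80 UMIs, in all kept cells. Lfng was found with 14 UMIs in endothelial-like, 5 in epithelium-like, 19 in glia-like, 28 in stroma-like and 0 in mural-like cells. Hey1 was found with 5, 2, 9, 21 and 4 UMIs in the same classes. None of the 3 reached 5 CPM in any comparison, so they entered none of the counts.

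Read against the background of all genes compared, the members called higher were 5 of 6 compared in endothelial-like cells (Notch1, Notch4, Jag1, Jag2 and Hes1; background 13.4% of genes), 3 of 6 in mural-like cells (Notch3, Notch4 and Hes1; 6.99%), 2 of 6 in epithelium-like cells (Jag1 and Jag2; 9.74%), 2 of 5 in glia-like cells (Notch1 and Jag1; 8.26%) and 0 of 6 in stroma-like cells (5.75%). The median log2 ratio of the members compared was 2.01 in endothelial-like, 1.07 in mural-like, 0.33 in epithelium-like, 0.61 in glia-like and -1.38 in stroma-like cells, with medians between -0.08 and 0 over all genes compared. At least 2-fold lower were 4 of 6 members in stroma-like cells (Notch1, Notch4, Jag1 and Jag2; background 10.3% of genes), 1 of 6 in endothelial-like cells (Notch2; 13.4%), 1 of 5 in glia-like cells (Notch2; 13.7%) and 0 of 6 in mural-like (9.95%) and epithelium-like cells (10.8%). Without the P14 library Jag2 averaged under 5 CPM in the stroma-like comparison and was not compared.

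Another 34 genes of the pathway were followed, which cover other ligands, enzymes that modify or cut the receptor, its nuclear partners and its targets. Of the Delta-like ligands, Dll4, a known endothelial ligand, was 116-fold above all other cells in endothelial-like cells (51.6 CPM), and Dll1 62.0-fold (35.1 CPM), while Dll3 reached 5 CPM in no class. Mfng, another fringe, was 56.7-fold higher there (155 CPM), and Nrarp, a feedback target that dampens the pathway, 17.5-fold (106 CPM). Adam10, a protease that cuts the receptor, and Numb, which withdraws it from the membrane, were 5.79-fold and 3.05-fold higher in the same cells. In mural-like cells the targets Heyl (25.6-fold, 246 CPM), Nrarp (9.13-fold) and Hey2 (5.08-fold) were higher, as were the non-canonical ligand Dlk1 (46.2-fold) and Furin (2.93-fold), which matures the receptor. Heyl was 5.21-fold lower in endothelial-like cells than in all others. In glia-like cells Hey2 (6.29-fold), Sox2 (15.3-fold) and Adam17 (4.60-fold) were higher. Epithelium-like cells were higher in Psen2, a part of the secretase that frees the receptor's inner end (6.75-fold), Nrarp (3.71-fold), Mfng (2.81-fold), Dlk2 (14.2-fold), Sox2 (2.63-fold) and Atoh1, the hair cell fate gene, with 48 UMIs against 12 in all other cells. In stroma-like cells no gene of the list was higher and 6 of the 24 compared were lower (background 10.3%), Dlk1, Mfng, Adam17, Hey2, Nrarp and Sox2. The genes higher were 6 of 26 compared in endothelial-like (background 13.4%), 5 of 23 in mural-like (6.99%), 6 of 25 in epithelium-like (9.74%) and 3 of 22 in glia-like cells (8.26%). Dner, a non-canonical ligand, was lower in endothelial-like, mural-like, epithelium-like and glia-like cells.

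**Figure D2:**
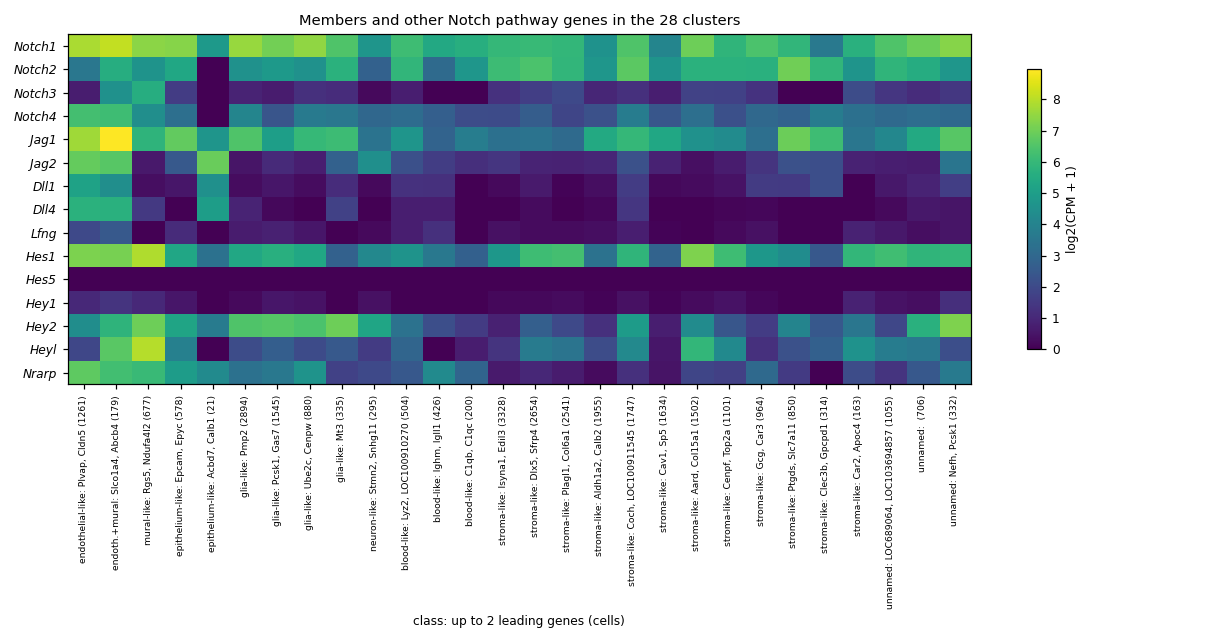
Levels of 15 pathway genes (rows) in the 28 clusters (columns, named by class, leading genes and number of cells), as log2(CPM + 1) by colour. Jag2, Dll1, Dll4 and Notch4 were bright in the endothelial-like cluster and in the cluster with both vessel wall lists, Notch3 and Heyl in the mural-like cluster, and Hes5 was dark throughout. Jag2 was also bright in the cluster led by hair cell markers.

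The endothelial-like cells were not of one kind. In a second clustering, 242 cells formed a group led by haemoglobin genes such as Hba-a2, 110 of them from P1, 131 from P7 and 1 from P14, and 556 cells, 553 of them from P14, formed a group led by Cxcl12, Slco1a4 and Abcb4. A further 241 cells were led by Cp, Vwf and Lpl, and 74 cells, all from P14, by Cytl1, Dkk2 and Eln. Jag1 stood at 46.4 CPM in the Hba-a2 group, 308 in the Cp and Vwf group, 722 in the Cxcl12 group and 1353 (1161 to 1569) in the Cytl1 group. Jag2 followed the same order with 58.5, 201, 308 and 361 CPM. Notch4 stood at 51.5, 132, 196 and 185 CPM and Notch1 at 159, 427, 408 and 485 CPM, so that the 3 groups mostly from P14 lay above the Hba-a2 group for all 4 genes while their order among themselves changed from gene to gene. No endothelial-like group had 50 or more cells in both P7 and P14, so a comparison of stages within one group could not be made. The erythroid marker list, which holds haemoglobin genes, summed to 5563 CPM in endothelial-like cells at P1, 1331 CPM at P7 and 473 CPM at P14, and the glia list to 59.3, 451 and 3420 CPM. Their part in the levels of the members was not tested. When the 3 groups led by markers of other classes were left out, the same 5 members were at least 2-fold above all other cells and Notch2 below them.

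Epithelium-like cells split further. Jag1 was concentrated in a group of 50 cells led by Grifin, Igfbp3 and Cep41 with 507 CPM (449 to 569; 281 of the 505 UMIs) and in a group of 157 cells led by Moxd1 that included the tectorial membrane genes Tectb and Tecta, with 182 CPM (146 to 224). It stood at 124 CPM (79 UMIs) in the group led by Pmch and Pmel and at 69.5 CPM in the group led by Otor, both led by markers of another class. It was scarce in the groups led by Smoc2 and Otoa (3.03 CPM), by Oc90 (8.14 CPM) and by Upk3a (11.4 CPM). Jag2 stood at 109.7 CPM (76.4 to 153) in the group led by Pcp4 and Otof and at no more than 20.0 CPM in any other. In that group Notch1 stood at 18.8 CPM (6 UMIs, 6.90 to 40.9), against 254 in the Grifin group. Notch2 stood at 101 CPM in the Oc90 group and at 1.80 CPM (1 UMI) in the Grifin group. At P14, 37 of the 79 epithelium-like cells were in a group led by Spp1 that included Kcne1, which had 1 cell at P1 and 3 at P7, and 26 were in a group led by the fibrocyte markers Otos and Coch with no cell at P1 or P7. The fibrocyte and mesenchyme list summed to 52916 CPM in epithelium-like cells of P14, against 1866 for the cochlear epithelium list. At P1 the same lists summed to 1009 and 2922 CPM and at P7 to 1902 and 5218 CPM. Values of this class at P14 are given with that limit.

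**Figure D3:**
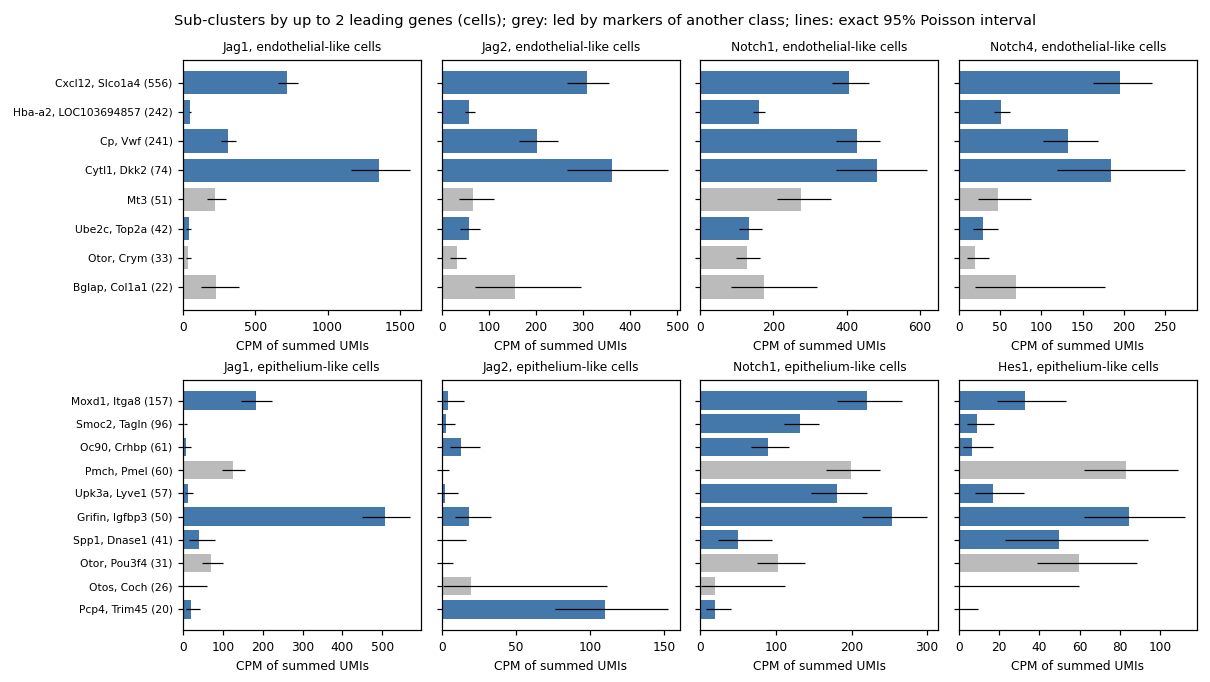
Levels in CPM of summed UMIs (horizontal axis) in the groups of endothelial-like cells (top; Jag1, Jag2, Notch1, Notch4) and epithelium-like cells (bottom; Jag1, Jag2, Notch1, Hes1), named by leading genes and number of cells, with exact 95% Poisson intervals; grey bars are groups led by markers of another class. Jag1 was highest in the Cytl1 group at 1353 CPM and, among epithelium-like cells, in the Grifin group at 507 CPM.

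From P1 to P7, 10 combinations of member and class differed at least 2-fold, and 9 of these were higher at P7. Jag1 was higher in 4 classes: 2.32-fold in endothelial-like (1.63 to 3.33), 3.28-fold in mural-like (2.25 to 4.91), 4.24-fold in glia-like (3.70 to 4.88) and 2.71-fold in epithelium-like cells (2.25 to 3.28). In stroma-like cells it was 1.15-fold higher (1.06 to 1.25) and was not called. Hes1 was higher in stroma-like (2.30-fold, 2.19 to 2.43), endothelial-like (2.11-fold, 1.77 to 2.54) and epithelium-like cells (2.17-fold, 1.58 to 3.01). In mural-like and glia-like cells it was 0.942 times (0.825 to 1.08) and 1.01 times (0.901 to 1.14) its P1 level. The epithelium-like call of Hes1 was lost, at a log2 ratio of 0.57, without the groups led by markers of other classes, and at -0.06 when cells were thinned to 1000 UMIs. Notch4 was higher in glia-like cells (4.87-fold, 3.46 to 7.07) and epithelium-like cells (3.09-fold, 1.498 to 6.76). The levels at P7 were 16.9 and 13.8 CPM, against 8.52 CPM in blood-like cells at that stage. Blood-like cells were themselves higher at P7 than at P1, where they held 2.62 CPM. Notch4 was also higher at P7 in mural-like (1.84-fold) and endothelial-like cells (1.64-fold), which were not called. In stroma-like cells it was 2.49-fold higher but averaged under 5 CPM and was not compared. The 1 combination lower at P7 was Jag2 in epithelium-like cells, at 0.303 times its P1 level (0.137 to 0.606), where the hair cell marker cluster had no cell from P7. Notch3 in mural-like cells was 1.04 times its P1 level (0.762 to 1.42).

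The members called were 4 of 6 in epithelium-like cells (background 21.5% of genes), 2 of 6 in endothelial-like (15.7%), 1 of 6 in mural-like (13.6%), 2 of 5 in glia-like (15.6%) and 1 of 4 in stroma-like cells (14%). Different clusters held most glia-like cells, with Pcsk1 and Gas7 leading at P1 and Pmp2 among the leading genes at P7, and most stroma-like cells, with clusters led by Isyna1, Plagl1 and Cav1 at P1 and by Dlx5, Aard and Gcg at P7. A stroma-like cluster led by Aldh1a2 and Calb2 was present at both stages, with 997 cells at P1 and 957 at P7. Of the other pathway genes, Adam10 was lower at P7 in all 5 classes, by 2.14-fold to 3.09-fold, and Rbpj in mural-like, glia-like and stroma-like cells by 2.15-fold to 2.30-fold. Dll4 (2.92-fold) and Dll1 (2.91-fold) were higher at P7 in endothelial-like cells. Atoh1 had 48 UMIs in epithelium-like cells at P1 and 0 at P7.

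From P7 to P14, 16 combinations differed, in directions that varied by class. Endothelial-like cells were higher at P14 in Jag1 by 9.27-fold (7.51 to 11.5), Jag2 by 3.32-fold (2.68 to 4.14), Notch4 by 2.73-fold (2.11 to 3.55) and Notch1 by 2.22-fold (1.92 to 2.57), while Hes1 was 1.99-fold lower (1.64 to 2.42), just short of the limit. With the median-of-ratios scaling described below, Notch1 fell under 2-fold at a log2 ratio of 0.84, and Hes1 passed it at -1.28. Mural-like cells, 60 at P14 in which 1 UMI was worth 11.6 CPM, were higher in Jag1 by 11.5-fold (8.31 to 15.7), Notch3 by 2.79-fold (1.34 to 5.24) and Notch1 by 2.68-fold (1.86 to 3.77). Notch2 in these cells rested on 4 UMIs at P14 with an interval of 0.688 to 7.51, and Jag2 on 1 UMI at P14 against 0 at P7, for which no fold is given. The marker lists of other classes moved as well in mural-like cells from P7 to P14, the glia list from 616 to 3315 CPM, the fibroblast list from 2301 to 6153 CPM and the mesenchyme and fibrocyte list from 1560 to 5118 CPM, beside 8069 and 10980 CPM of their own list, and their part in these values was not tested. In stroma-like cells only Jag1 of the 5 members compared was called, 4.08-fold higher (3.65 to 4.56). The glia list there summed to 165 CPM at P7 and 1477 CPM at P14, and the endothelial list to 59.1 and 226 CPM. Of the lists of stroma itself, the osteoblast list went from 57.8 to 4481 CPM. The part of these lists in the Jag1 value was not tested. Glia-like cells were lower in Hes1 by 7.49-fold (3.20 to 23.1; 5 UMIs at P14) and in Notch1 by 2.13-fold (1.72 to 2.66) and higher in Notch2 by 2.23-fold (1.59 to 3.06). Epithelium-like cells were lower in Jag1 by 4.58-fold (2.46 to 9.63) and in Notch1 by 2.65-fold (1.61 to 4.70), and Notch4 was at 1 UMI at P14 against 25 at P7. The Grifin and Moxd1 groups, in which Jag1 was concentrated, had 20 and 76 cells at P7 but 0 and 1 at P14. A different mix of groups and a different level per cell cannot be told apart in these folds.

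These counts stand on a wide background, because 36.1% of genes differed at least 2-fold between P14 and P7 in endothelial-like cells (members 4 of 6), 51.2% in mural-like (5 of 7), 38.5% in epithelium-like (3 of 5), 33.9% in glia-like (3 of 5) and 27.9% in stroma-like cells (1 of 5). The median log2 ratio over all genes compared was 0.37 in endothelial-like and 0.42 in mural-like cells, against 1.29 and 1.42 over the members. Scaling by the median of ratios took 0.30 and 0.33 off the log2 ratios of these classes. Glia-like cells of P14 came mostly from a cluster with Mt3 among its leading genes that had 4 cells at P7, and stroma-like cells of P14 from clusters led by Coch, Ptgds and Clec3b with at most 2 cells each at P7. In the same endothelial-like cells, 10 of 25 other pathway genes were higher and 1 lower at P14, beside the 36.1% of all genes that differed in either direction. Among those higher were the target Hey2 (10.2-fold), Dll1 (4.15-fold) and Mib1, which activates ligands by ubiquitination (3.098-fold). Nrarp was 2.51-fold lower.

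**Figure D4:**
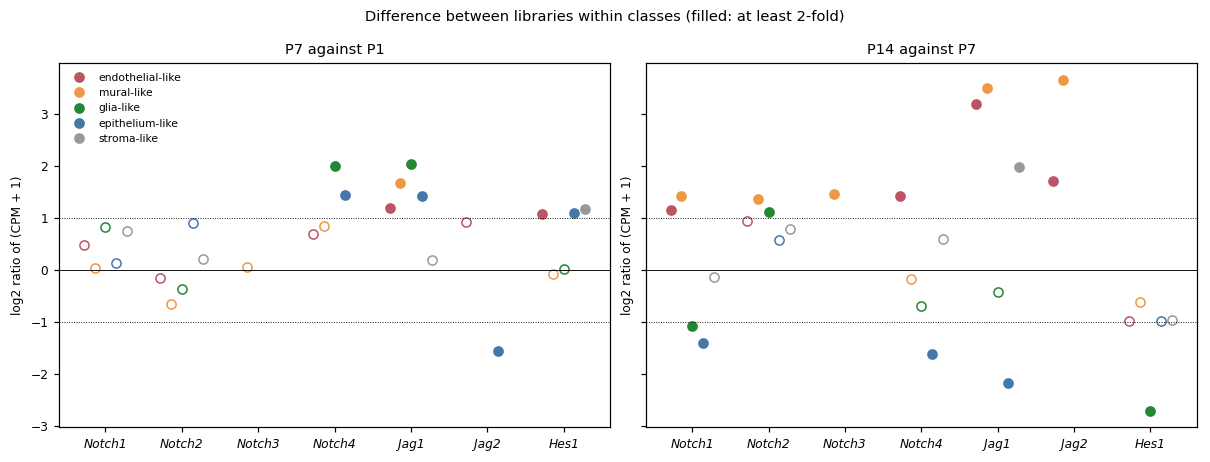
Log2 ratio of CPM + 1 (vertical axis) for 7 members (horizontal axis) in 5 classes (colours), P7 against P1 on the left and P14 against P7 on the right; filled points differ at least 2-fold, dotted lines mark 2-fold. Jag1 was above 0 in all 5 classes from P1 to P7, and from P7 to P14 ran from -2.17 in epithelium-like to 3.50 in mural-like cells.

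Taken over all cells of a library, which also lets the mix of cell types enter, Jag2 stood at 3.54 CPM at P1, 2.12 at P7 and 38.9 at P14, an 18.386-fold step from P7 to P14 (15.5 to 21.8). Endothelial-like cells gave 345 of the 453 Jag2 UMIs of P14, and within that class the step was 3.32-fold. These values are of kept cells. The barcodes left out by the filter held 276 of all 623 Jag2 UMIs of P1, at 17.0 CPM against 3.54 in kept cells. At P7 they held 64 of 261 and at P14 78 of 531 Jag2 UMIs. Jag1 stood at 18.9, 45.2 and 154 CPM and Notch4 at 3.90, 10.9 and 29.3 CPM, each at least 2-fold higher at every step. Notch1 stood at 59.5, 117 and 119.7 CPM, Notch2 at 43.1, 46.5 and 67.5 CPM, Notch3 at 2.46, 2.37 and 2.58 CPM and Hes1 at 38.2, 71.4 and 43.4 CPM, with no step of 2-fold. The members called were 2 of 5 from P1 to P7, where 14% of genes were, and 3 of 6 from P7 to P14, where 27.2% were. In such sums, a different number of cells of a type and a different level per cell cannot be told apart.

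To compare the share of cells with a UMI despite the depth gap, each cell was thinned to 1000 UMIs, which left out 965 shallower cells (37 at P1, 193 at P7 and 735 at P14). In endothelial-like cells the share with Jag1 was 3.68% at P1 (6 of 163 cells), 7.47% at P7 and 38.0% at P14 (exact Clopper-Pearson interval 34.0 to 42.2). Before thinning it was 24.2%, 34.4% and 42.5% at median depths of 9076, 6884 and 1116 UMIs. The thinned and unthinned shares of P14 are not of the same cells. The Cxcl12 group, with 553 of its 556 cells from P14, had a median of 969.5 UMIs, so many of its cells were left out. After thinning, the shares with Jag2 were 3.07%, 8.62% and 22.1%, with Notch4 3.68%, 5.17% and 12.5%, and with Notch1 12.9%, 21.3% and 32.7%. For these 4 genes the shares kept the order of the CPM, but the intervals of P1 and P7 overlapped for each of them. Before thinning the shares ran the other way for Notch1, from 61.2% at P1 to 39.8% at P14. Hes1 was found in 14.1%, 23.6% and 9.29% of thinned endothelial-like cells. In mural-like cells the share with Jag1 was 2.13%, 7.09% and 51.6%, the last from 31 cells (33.1 to 69.8). Thinned blood-like cells had Jag1 in 1.06%, 2.84% and 2.82% and Jag2 in 0%, 0% and 0.446% of cells, below the endothelial-like and mural-like shares of Jag1 and the endothelial-like shares of Jag2 at each stage.

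**Figure D5:**
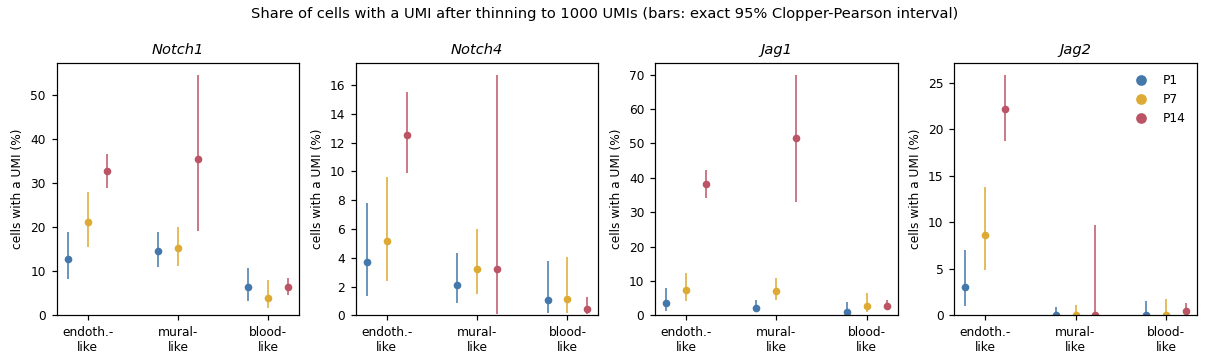
Share of cells with at least 1 UMI (vertical axis, percent) of Notch1, Notch4, Jag1 and Jag2 after thinning to 1000 UMIs in endothelial-like, mural-like and blood-like cells (horizontal axis) of the P1, P7 and P14 libraries (colours), with exact 95% Clopper-Pearson intervals. Jag1 at P14 reached 38.0% of endothelial-like and 51.6% of mural-like cells against 2.82% of blood-like cells.

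The genes most alike in profile were found for the 7 members with at least 10 CPM in a cluster, by Pearson's r of log2(CPM + 1) over 27 clusters and 9653 genes. The clusters share libraries and depth, so r is a description. Notch4 was most like Mmrn2 (r = 0.89), Pdgfb and Ptprb, and Notch3 most like Cox4i2 (0.90), Ajuba and Myl9. Jag2 was most like Slc7a1 (0.91), Mcf2l and Gba2, and Jag1 was close to Sgms1 (0.86) and Col18a1. Notch1 came closest to Ccn1 (0.79), Itm2a and Smtn, Notch2 to Lrp1 (0.87), Slc39a13 and Gramd2b, and Hes1 to the basement membrane collagens Col4a1 (0.83) and Col4a2 and to Ccn1. No member was among the 3 genes nearest to another member.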

How the data were processed

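Counts of UMIs per gene and barcode were made by the authors with Cell Ranger (matrix header version 3.1.0) on 10x Chromium 3′ V3 libraries aligned to rat rn6 and were deposited without normalization. The annotation release is not given in the sources used here. Per the paper's methods 40 rats were selected for each stage, 1 library per stage was analysed, and how many rats went into a library is not stated. Kept barcodes (more than 500 and fewer than 5000 genes, under 25% mitochondrial UMIs) were log-normalized, joined without batch correction and clustered in Seurat 5.3.0 (2000 variable genes without the pathway list, 10 principal components, resolution 0.8) under R 4.3.3. Outside stroma, clusters were named from a marker list when 3 or more, and at least 50%, of its markers led. Stroma-like was a looser class of the remaining clusters. It needed 3 or more of 26 pooled stroma markers to lead against the clusters that had passed another list. Doublets marked by Scrublet (4.87% at P1, 6.16% at P7 and 0.0379% at P14) were kept. At P14 it marked 2 of 5281 cells, so doublets there may have gone unmarked, which was not tested. UMIs were summed in Python 3.11.15 (numpy 2.4.6, scipy 1.17.1, pandas 2.3.3) and given as CPM with exact 95% Poisson intervals, where a count of 0 allows 3 counts. Log2 ratios and calls used 1 CPM added, while folds and their intervals were taken without it. The 10 members were named in every class and stage, other pathway genes when called in a class or as canonical ligands and targets, and for profiles the 3 genes of highest r. Members and lists were chosen with earlier results of these data known. Only the fold calculation was tested on simulated data, that is, on Poisson counts with planted differences. The simulation held no clustering, naming of classes or library effects. The kept UMIs of P1, P7 and P14 totalled 98005495, 93080129 and 11641065. Some leading and most alike genes are not reported here.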

Additional observations from a re-analysis of the deposited data

Results flagged for a closer look

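Between P7 and P14, 3 members moved in opposite directions in different classes. The log2 ratio of P14 against P7 for Notch1 was 1.14 in endothelial-like and 1.42 in mural-like cells but -1.39 in epithelium-like and -1.08 in glia-like cells. For Notch4 it was 1.43 in endothelial-like and -1.61 in epithelium-like cells, the latter with 1 UMI at P14. For Jag1 it was 3.19 in endothelial-like, 3.50 in mural-like and 1.98 in stroma-like cells and -2.17 in epithelium-like cells. Each class had 1 library per stage, so the difference between classes was not tested, and different groups of cells made up the endothelial-like and epithelium-like classes at P7 and P14.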

How the results depend on the processing

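No paired analysis was possible because each stage had 1 library and the stages are the groups compared, and for the same reason no replicate could be left out. Class ratios were also computed within each library, without a test. The 12 combinations of member and class above all other cells numbered between 9 and 14 under the alternatives. The 10 combinations that differed between P7 and P1 became 5 with classes taken from the marker UMIs of each cell and 4 with 10 CPM added, which also took the members called over all cells from 2 to 0. The 16 combinations that differed between P14 and P7 became 8 with each library clustered on its own, where fewer classes had enough cells at P14. Over 1435 recomputed log2 ratios 178 moved by more than their counting error. Moves were most frequent when cells were thinned to 1000 UMIs (36 of 88), with the mean of the CPM of each cell (33 of 95) and with 10 CPM added (31 of 95). Of the 1435, 2 changed direction. These were the log2 ratio of Jag2, epithelium, against all other cells, from 1.24 to -0.31 with the mean of the CPM of each cell, and the log2 ratio of Hes1, epithelium, P7 against P1, from 1.09 to -0.0621 when thinned to 1000 UMIs; the cause was not tested. Notch4 in mural-like, Notch1, Notch2 and Jag1 in glia-like and Jag2 in epithelium-like cells lost the 2-fold call against all other cells under at least 1 alternative. Without the P14 library 10 of 60 ratios moved, and Notch1 and Jag1 in endothelial-like cells fell under 2-fold (0.83 and 0.49). That alternative, and those on the haemoglobin-led cluster, the hair cell cluster and groups led by markers of another class, were chosen after seeing the data. At P14, 1 UMI was worth 11.6 CPM in mural-like and 3.85 CPM in epithelium-like cells, which limits what could be detected there.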
